A study of Homo sapiens with 4 samples.

Results

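The interferon-induced proteins with tetratricopeptide repeats, the IFIT family, are encoded side by side on chromosome 10, and their promoters were followed here in a profile of histone H3 lysine 4 trimethylation (H3K4me3). A merged peak was taken for IFIT1, IFIT2, IFIT3 or IFIT5 when the deposited annotation gave that gene as its nearest start site and placed the centre of the peak within 5 kb of it. The rule gave 7 of 110018 merged peaks, for 4 of 18346 genes: 3 peaks for IFIT1, 2 for IFIT2, 1 for IFIT3 and 1 for IFIT5, over 113.9 kb. Another 4 rows carried an IFIT gene name from farther away, were called as a peak in 0 of the 4 libraries, and held between 0 and 1.37 tags per 10 M aligned tags. All 7 peaks and all 4 genes passed the filter on low values.

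The study profiled HCC1428, an established line of breast adenocarcinoma cells (genotype WT in the labels), to learn what inhibition of the KDM5 histone demethylases does to this mark. Cells received DMSO, the vehicle, or 2.5 µM C48, a KDM5 inhibitor, and were collected on day 5, with 2 libraries a group, labelled as biological replicates. The mark was measured by CUT&Tag, in which an antibody guides a transposase to marked chromatin and the inserted fragments are sequenced. Nuclei of *Drosophila* were added to every sample as a spike-in control, and the spike-in counts were not used here.

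KDM5 enzymes remove methyl groups from lysine 4 of histone H3, a mark found around the start sites of active genes. The IFIT genes are textbook interferon-stimulated genes. Interferon receptors signal through JAK kinases to transcription factors that bind a short promoter sequence, the interferon-stimulated response element. The proteins bind viral RNA: IFIT1 recognises RNA with an incompletely methylated cap, IFIT3 stabilises IFIT1 on RNA, IFIT2 joins the same assemblies, and IFIT5 binds RNA with an exposed end phosphate.

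The response element is shown first, since it is what the family is known for. RefSeq windows from 250 bases before to 50 bases after each start site (GRCh38.p14) were matched by symbol, and 3 of the 4 genes had an entry (IFIT1, IFIT3 with 2 start sites, and IFIT5). No entry was matched for IFIT2. The letters GAAANNGAAA, a core of the response element, were searched on both strands. All matches lay on the minus strand and so read TTTCNNTTTC on the plus strand, which is the strand of the 3 genes and the one printed. Capitals mark the matches, with 20 bases on either side. The IFIT1 stretch is chr10:89392487-89392549, the IFIT3 stretches are chr10:89327821-89327904 and chr10:89332415-89332507, and the IFIT5 stretch is chr10:89414503-89414593.
IFIT1: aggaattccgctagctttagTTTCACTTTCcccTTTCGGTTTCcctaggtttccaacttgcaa
IFIT3, at the marked start site: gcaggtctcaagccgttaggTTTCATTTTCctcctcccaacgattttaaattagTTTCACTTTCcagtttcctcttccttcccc
IFIT3, at the other start site: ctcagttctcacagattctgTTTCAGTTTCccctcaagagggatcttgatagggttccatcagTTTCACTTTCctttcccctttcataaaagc
IFIT5: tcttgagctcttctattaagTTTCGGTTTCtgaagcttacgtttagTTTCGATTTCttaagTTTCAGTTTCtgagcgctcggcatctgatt

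The windows of IFIT1 and of both IFIT3 start sites held 2 matches each, and the window of IFIT5 held 3. Of 35116 RefSeq windows of the same length, 3.57% held at least 1 match, 0.259% at least 2 and 0.0370% at least 3. In IFIT1 the matches began 116 and 103 bases before the RefSeq start site at 89392623. In IFIT5 they began 45, 19 and 4 bases before the start site. The windows of IFIT1, IFIT5 and the IFIT3 start site at 89327997 lay whole inside a merged peak, while the window of the other IFIT3 start site, at 89332529, met none. A match is a description of the letters only.

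The members differed in CpG content. The IFIT5 peak held 101 CpG in 1148 bases, at 62.9% GC and 0.89 of the CpG number expected from its bases. The other 6 peaks held between 1 and 9 CpG each, at 38.0% to 48.8% GC and 0.09 to 0.28 of the expected number. The median of the 33675 tested peaks with a value was 0.65. The IFIT5 promoter is shown here by the 250 bases before its start site (GRCh38.p14, chr10:89414318-89414567, plus strand), with each of its 14 CpG in capitals. This stretch is less rich than the peak as a whole: the RefSeq window that holds it had 16 CpG at 47.7% GC, beside medians of 14 CpG and 58.7% GC over all windows. The peak in intron 2 of IFIT1 had 2 CpG in 297 bases.
IFIT5, before the start site: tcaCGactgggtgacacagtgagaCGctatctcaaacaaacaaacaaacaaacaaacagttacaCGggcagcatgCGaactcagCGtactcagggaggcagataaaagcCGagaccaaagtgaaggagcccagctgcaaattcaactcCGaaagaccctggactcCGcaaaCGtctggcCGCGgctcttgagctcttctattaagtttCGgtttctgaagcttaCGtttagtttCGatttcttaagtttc

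The 4 libraries held 58.4 to 88.4 M aligned tags, of which 64.0% to 66.3% lay in merged peaks, and a member peak held between 35 and 6446 tags in a library. The libraries carried the mark at the luminal genes FOXA1, GATA3, ESR1, KRT8 and KRT18 (87.7 to 1687 tags per 10 M within 5 kb). At all 5, both C48 libraries lay below both DMSO libraries on this deposited scale. KRT8, for example, stood at 1687 and 1655 in DMSO and at 1028 and 1043 in C48. Of all tested peaks, 27.5% lay below in this way and 59.8% above. FOXA1, GATA3, ESR1 and KRT8 had strong promoters, at 400 tags per 10 M or more in every library. The direction of change in this series went with promoter strength, as set out below. A loss particular to luminal genes was not tested. Among markers of other cell types, PTPRC, CD3E, PECAM1 and KRT14 had no peak within 5 kb. TP63 was at 6.79 and 12.4 in DMSO and at 45.7 and 46.7 in C48, and COL1A1 was at 853 to 981. Whether these levels have a part in the IFIT values was not tested.

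IFIT1 changed at all 3 of its peaks. The mark within 5 kb of its start site stood at 67.9 and 74.0 tags per 10 M in the DMSO libraries and at 217 and 217 in the C48 libraries. Both C48 libraries lay far above both DMSO libraries. After TMM scaling, which sets the bulk of peaks called in at least 1 library level, the means were 81.5 ± 3.96 and 189 ± 1.13 (SD, n = 2 each). The log2 change was 1.20 ± 0.09 (SE, limma, adjusted p = 4.06e-41). In these bulk samples, a larger share of marked cells and more mark in each cell cannot be told apart.

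The IFIT1 peak over the start site, chr10:89392189-89392736, moved least of the 3. It includes the start of both annotated IFIT1 transcripts, with coding and untranslated exon. It held 39.8 and 45.8 tags per 10 M in DMSO and 81.4 and 81.6 in C48, a log2 change of 0.52 ± 0.12 after TMM scaling (limma, adjusted p = 0.000124). HOMER called a peak here in both DMSO libraries and in neither C48 library, although the C48 libraries held more tags.

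The second IFIT1 peak, chr10:89393036-89393555, has its centre 672 bases downstream, over the 5′ UTR part of exon 2 of NM_001270930. It held 22.2 and 22.1 tags per 10 M in DMSO and 102 and 100.5 in C48. It was called in both C48 libraries and in neither DMSO library. Its log2 change was 1.75 ± 0.13 (limma, adjusted p = 1.01e-16).

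The third IFIT1 peak, chr10:89394022-89394318, lies in intron 2 with its centre 1547 bases downstream. It held 5.88 and 6.04 tags per 10 M in DMSO and 33.6 and 35.4 in C48, and was called in C48 replicate 1 only. Its log2 change, 1.98 ± 0.22 (limma, adjusted p = 3.16e-11), was larger than that of 98.5% of the 33772 tested peaks. It entered that test only through its call in C48, where it was high, so this rank is a description.

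**Figure D1:**
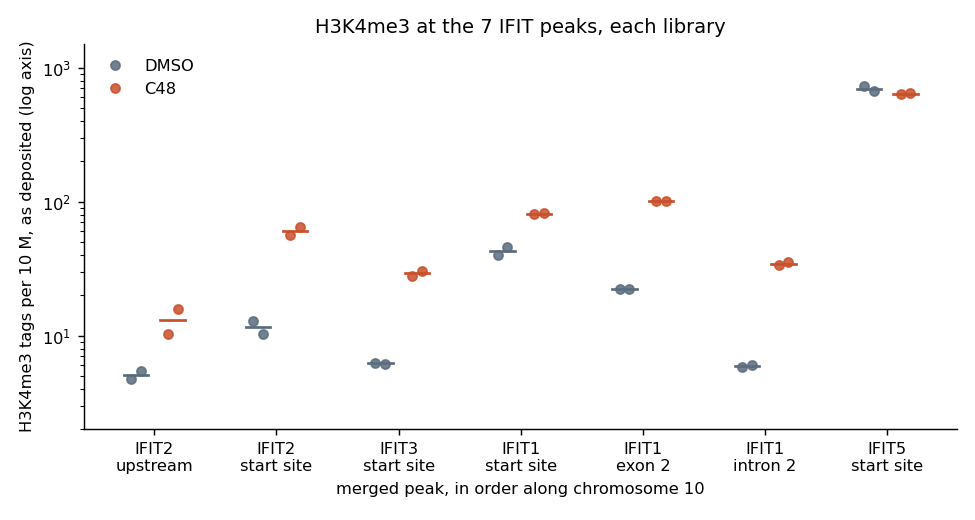
H3K4me3 tags per 10 M aligned tags as deposited (y axis, log scale) at the 7 IFIT peaks in order along the chromosome (x axis); points are libraries and short lines are group means. The C48 points sit above the DMSO points at all 6 peaks of IFIT1, IFIT2 and IFIT3, and just below them at IFIT5, whose 4 values lie between 630 and 729.

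All 3 IFIT1 peaks rose, but by unequal amounts, so the shares of the mark between them changed as well as its amount. The start-site peak held 58.7% and 61.9% of the IFIT1 tags in DMSO and 37.5% in each C48 library. The exon 2 peak went from 32.7% and 29.9% to 47.0% and 46.2%, and the intron 2 peak from 8.66% and 8.16% to 15.5% and 16.3%. These shares do not depend on how libraries are scaled, and the groups did not overlap at any of the 3 peaks.

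The same was tested as the log2 ratio of the flank, peaks over 500 and up to 5000 bases from the start site, to the core, peaks within 500 bases. In IFIT1 it was -0.49 and -0.68 in DMSO and 0.73 in both C48 libraries, so that the flank held less than the core before and more after. The change was 1.32 ± 0.09 (limma, adjusted p = 0.000204). Such a shift was common: 73.7% of the 5594 genes with both kinds of peak were called higher and 6.58% lower, with a median change of 0.69, and IFIT1 exceeded 80.0% of them. The IFIT1 flank was made up of the exon 2 and intron 2 peaks, which were called in C48 libraries only. IFIT2, IFIT3 and IFIT5 had no peak in the flank and gave no value. With a core of 1000 bases, which takes in the exon 2 peak, the change in IFIT1 was 0.90 (limma, adjusted p = 0.000763).

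IFIT2, the partner in the RNA-binding assemblies, had a low mark in DMSO. Its start-site peak, chr10:89301772-89302482, held 12.9 and 10.4 tags per 10 M in DMSO and 56.0 and 64.3 in C48. It was called in all 4 libraries and includes 3 of the 15 annotated IFIT2 transcript starts. The log2 change was 1.90 ± 0.17 (limma, adjusted p = 9.26e-14).

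A small IFIT2 peak farther upstream, chr10:89301447-89301702, lay in introns only and was called in DMSO replicate 2 alone. It held 4.75 and 5.42 tags per 10 M in DMSO and 10.3 and 15.8 in C48. Its log2 change of 0.83 ± 0.28 (limma, adjusted p = 0.00892) rested on C48 replicate 2: without that library it was 0.50 (adjusted p = 0.280). Over both peaks, IFIT2 changed by 1.67 ± 0.15 (limma, adjusted p = 6.92e-27), the 117th largest rise of 15602 tested genes.

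IFIT3, which stabilises IFIT1 on RNA, had the lowest mark of the family. Its only peak, chr10:89327490-89328384, holds 6 of the 15 annotated IFIT3 transcript starts. It stood at 6.22 and 6.19 tags per 10 M in DMSO and at 28.1 and 30.3 in C48, and was called in 3 libraries, the exception being DMSO replicate 2. The C48 libraries lay well above the DMSO libraries, which were nearly equal. The log2 change was 1.70 ± 0.23 (limma over genes, adjusted p = 5.62e-13), ranked 108 of 15602.

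IFIT5 stood apart from its relatives in level and direction. Its peak, chr10:89414229-89415376, over exon 1, held 729 and 664 tags per 10 M in DMSO and 630 and 650 in C48, and was called in all 4 libraries. The groups did not overlap on this scale, but by a margin smaller than the gap between the DMSO libraries. After TMM scaling the means were 801 ± 62.7 and 557 ± 14.6 (SD, n = 2 each), a log2 change of -0.52 ± 0.05 (limma, adjusted p = 2.29e-28). The direction depended on the scaling: relative to promoters of ribosomal protein genes IFIT5 was higher by 0.30, and with column totals its change of -0.056 missed the threshold (adjusted p = 0.213). The peak holds 6 of 8 annotated IFIT5 transcript starts and, on the opposite strand, 1 of 8 of LIPA, a lysosomal lipase gene, so the mark there cannot be assigned to either.

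In all, with TMM scaling, 6 of the 7 IFIT peaks were called higher and 1 lower (IFIT5, whose direction turned relative to ribosomal protein promoters), where 32.3% of the 33772 tested peaks were called higher and 39.2% lower. The median log2 change was 1.70 over the 7 peaks and -0.02 over all tested peaks. The IFIT1 exon 2 and intron 2 peaks entered this test only through calls in C48 libraries, where they were high. Their calls are therefore not independent of how they were admitted. On the deposited scale the groups did not overlap at any IFIT peak, with C48 above at 6 and below at 1. Both C48 libraries lay above both DMSO libraries at 59.8% of all tested peaks and below them at 27.5%. By gene, 3 of 4 were called higher and 1 lower, against 18.9% higher and 64.0% lower of the 15602 tested genes, and the median was 1.44 against -0.38.

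The IFIT peaks differed widely in level under both treatments. Per kb of peak after TMM scaling, the IFIT5 peak held 698 tags per 10 M in DMSO, followed by the IFIT1 start site at 89.7 and IFIT1 exon 2 at 49.0. IFIT1 intron 2 at 23.1, the upstream IFIT2 peak at 22.8 and the IFIT2 start site at 18.8 came next. Of these, the intron 2 values fell within the range of the upstream IFIT2 libraries. IFIT3 was lowest at 7.97. In C48 IFIT5 still led at 485, but IFIT1 exon 2 at 169 had passed the IFIT1 start site at 129, with intron 2 at 101, the IFIT2 start site at 73.6, the upstream IFIT2 peak at 44.4 and IFIT3 at 28.4. No neighbours in the C48 order overlapped between libraries.

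As a share of all IFIT tags, IFIT5 made up 88.8% and 87.4% in DMSO and 66.9% and 66.5% in C48, while IFIT1 went from 8.27% and 9.73% to 23.0% and 22.2%. The difference of IFIT1 to IFIT5 within a library changed by 1.73 on the log2 scale, that of IFIT2 to IFIT5 by 2.20 and that of IFIT3 to IFIT5 by 2.22. Those of IFIT1 to IFIT2 and IFIT3 changed by -0.47 and -0.49. In each of these 5 pairs the groups did not overlap. The difference of IFIT2 to IFIT3 changed by -0.02, within the spread of the libraries, and its sign turned under 3 alternatives. The exact two-sided permutation test gave p = 0.333 for the 5 pairs, the smallest 2 against 2 libraries allow, and p = 0.667 for the last (adjusted over the 6 pairs, 0.4 and 0.667).

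**Figure D2:**
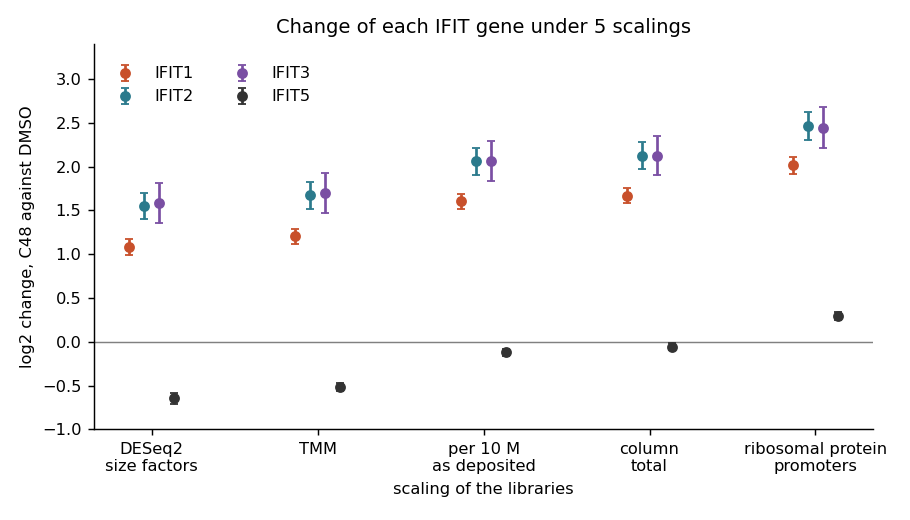
Log2 change of H3K4me3 within 5 kb of the start site, C48 against DMSO (y axis), for the 4 IFIT genes under 5 scalings of the libraries (x axis); points are limma estimates and bars are ± 1 SE. IFIT1, IFIT2 and IFIT3 stay above 0 from left to right, while IFIT5 runs from -0.65 through -0.52, -0.12 and -0.056 to 0.30.

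Each other scaling of the libraries moved the changes of all 4 members in 1 direction. Against TMM scaling, the log2 change shifted by 0.40 for the values as deposited, 0.47 with column totals, -0.13 with DESeq2 size factors and 0.82 when 69 promoter peaks of ribosomal protein genes were held level. These shifts are those of strong peaks, and the pseudocount of 1 made them smaller at weak peaks. IFIT1 ranged from 1.08 to 2.01, IFIT2 from 1.55 to 2.46 and IFIT3 from 1.58 to 2.45, and all 3 were called higher under each of these 5 scalings. The study scaled its libraries by the spike-in, which raises the C48 libraries relative to DMSO. The falls with TMM scaling given here, that of IFIT5 included, are therefore relative to the bulk of peaks called in at least 1 library. Those peaks include weak ones called in C48 only, and on this scale the median tested gene changed by -0.38. Whether any of them is a loss of mark as such was not tested, since the spike-in counts were not used. The background moved with the scaling. Of all tested genes, 39.5% were higher and 37.2% lower as deposited, 44.6% and 32.1% with column totals, 14.7% and 69.2% with DESeq2 size factors, and 76.3% and 5.73% relative to ribosomal protein promoters. On that last scale all 7 IFIT peaks were called higher, where 78.0% of all peaks were, and 0 were lower, where 5.38% were. With column totals limma called 0 IFIT peaks lower, also at an unadjusted p under 0.05, where 20.4% of peaks were lower. The edgeR and DESeq2 tests were not run with column totals.

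The direction of change in this series went with the strength of the promoter, so each IFIT gene was set beside genes of like level. IFIT3 fell among 691 genes with a mean of 10 to 20 scaled tags per 10 M, of which 48.5% were called higher, and it exceeded 96.5% of them. IFIT2 fell among 1247 genes between 20 and 50, of which 50.4% were higher, and exceeded 97.8%. IFIT1 fell among 2387 genes between 100 and 200, of which 24.5% were higher, and exceeded 98.2%. IFIT5 fell among 3236 genes between 500 and 1000, of which 91.8% were called lower, and its change was close to their median of -0.61.

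**Figure D3:**
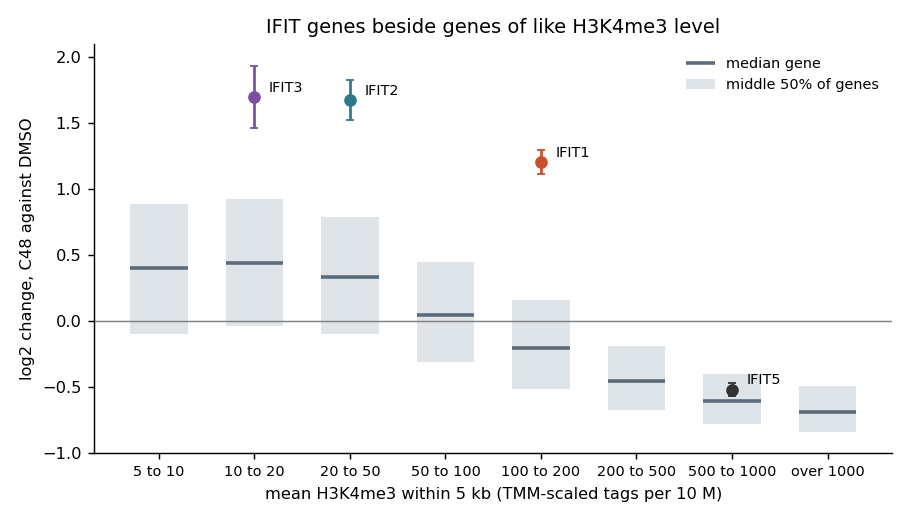
Log2 change of H3K4me3 (y axis) by class of mean level within 5 kb in TMM-scaled tags per 10 M (x axis); boxes span the middle 50% of genes, lines mark the median gene, and points are the IFIT genes with ± 1 SE. IFIT1, IFIT2 and IFIT3 lie above the boxes of their classes, whose medians are -0.21, 0.34 and 0.44, while IFIT5 lies inside its box.

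The same was done for CpG content among peaks within 5 kb of a start site, where poor peaks tended to rise and rich ones to fall. At 0.1 to 0.2 of the expected CpG number, 400 such peaks had a median log2 change of 1.07, and IFIT1 exon 2 and intron 2, at 1.75 and 1.98, lay above it. At 0.2 to 0.3, 655 peaks had a median of 0.80. There the start sites of IFIT2 and IFIT3, at 1.90 and 1.70, lay above the median and that of IFIT1, at 0.52, below it. The upstream IFIT2 peak, at 0.83, lay below the median of 1.21 of the 99 peaks under 0.1. IFIT5, at -0.52, was close to the median of -0.57 of 4563 peaks between 0.8 and 0.9. Level and CpG content went together, with a median level of 23.7 scaled tags per 10 M at 0.1 to 0.2 and 282 at 0.8 to 0.9, and their parts were not tested apart.

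**Figure D4:**
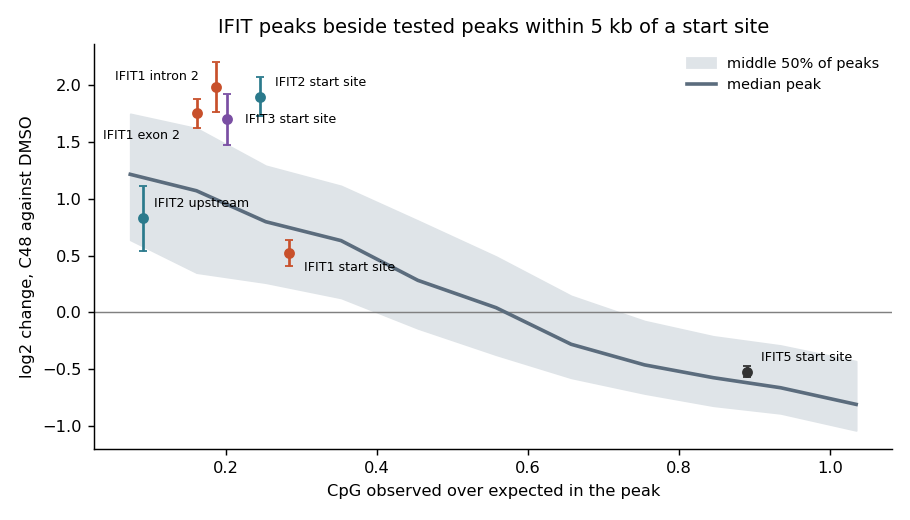
Log2 change of H3K4me3 (y axis) against the CpG number of the peak over that expected from its bases (x axis); the line and band are the median and middle 50% of tested peaks within 5 kb of a start site, and points are the IFIT peaks with ± 1 SE. The start-site peaks of IFIT2 and IFIT3 and both downstream peaks of IFIT1 lie above the median line, while the IFIT1 start site lies below it and IFIT5 close to it.

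Of 9 genes beside the cluster on chromosome 10, 8 had a peak within 5 kb and 7 were tested: 2 were called higher and 5 lower, with a median log2 change of -0.58, while relative to ribosomal protein promoters 5 were higher and 0 lower. These are 28.6% higher and 71.4% lower with TMM scaling, near the 18.9% and 64.0% of all tested genes, and 76.3% of all genes were higher relative to ribosomal protein promoters. The list was not matched for level. The genes that fell had means of 225 to 638 scaled tags, and those that rose had 56.0 and 76.0. Of all genes at 200 to 500 and 500 to 1000, 79.4% and 91.8% were called lower. At 50 to 100, 36.6% were called higher. LIPA, whose annotation runs across IFIT2, IFIT3 and IFIT1 on the opposite strand, fell by 0.76 at its own start site. FAS, a death receptor gene, fell by 0.72, STAMBPL1, a deubiquitinase gene, by 0.62, and PANK1, a pantothenate kinase gene, by 0.58. The 2 that rose, named for being so few, were CH25H, which encodes cholesterol 25-hydroxylase and is itself induced by interferon (0.81), and SLC16A12, a transporter gene (0.73). IFIT1B, between IFIT3 and IFIT1, had no row.

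**Figure D5:**
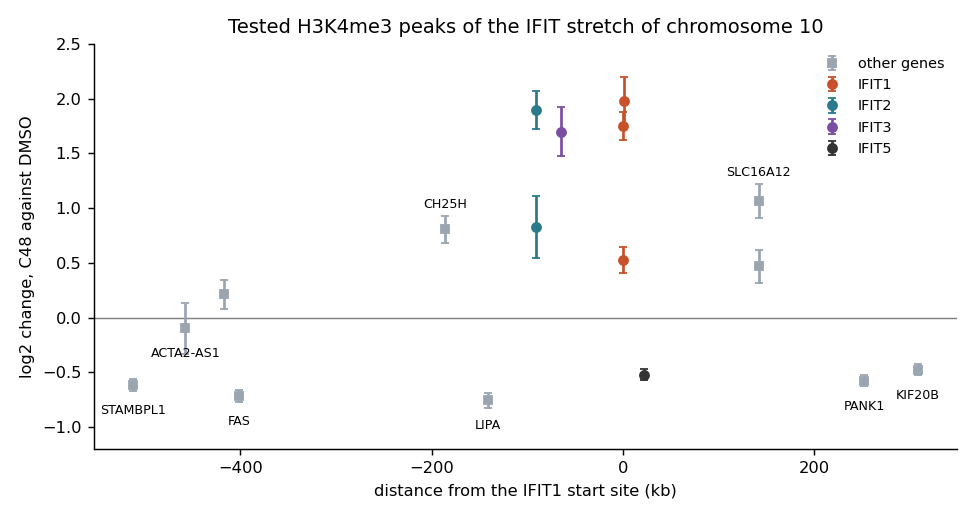
Log2 change of H3K4me3 with ± 1 SE (y axis) at the 17 tested peaks of the stretch, by distance in kb from the annotated start of the IFIT1 gene at 89392546 (x axis), with TMM scaling. The peaks of IFIT1, IFIT2 and IFIT3 stand at 0.52 to 1.98 between peaks of LIPA and IFIT5 at -0.76 and -0.52, and the sign of the IFIT5 peak turns relative to ribosomal protein promoters.

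The list of other interferon-stimulated genes held 44 symbols, with RIGI entered also under its older symbol DDX58. Of these, 34 were tested, 19 were called higher and 9 lower, and the median log2 change was 0.28. Beside them, 18.9% of all tested genes were higher and 64.0% lower, with a median of -0.38. The list was not matched for level, and many of its genes were weak. Of all genes with a mean of 20 to 50 and 50 to 100 scaled tags, 50.4% and 36.6% were called higher. The RNA sensor genes OAS1 and OAS2, rose by 2.47 and 2.38, and BST2, which encodes the virus tether tetherin, rose by 1.11. ZC3HAV1, an antiviral zinc finger gene with a strong promoter of 1089 to 1196 tags per 10 M, fell by 0.49 with TMM scaling, a fall that was not seen relative to ribosomal protein promoters, where 0 genes of the list were lower. The split was 27 higher and 3 lower on the deposited values, 27 and 1 with column totals, and 33 and 0 relative to ribosomal protein promoters.

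Among 15 genes that carry or brake the interferon signal, 13 were tested, 12 were called lower and 1 higher, with a median of -0.66, beside 64.0% lower and 18.9% higher of all tested genes. Most of them had strong promoters. Of all genes with a mean of 200 to 500, 500 to 1000 and over 1000 scaled tags, 79.4%, 91.8% and 95.4% were called lower. The medians of these classes were -0.46, -0.61 and -0.69, so the falls of this list were near those of genes of like level. JAK1, the receptor kinase, fell by 0.84, and the brakes PTPN2, SOCS1 and SOCS3 by 0.94, 0.82 and 0.72. The exception, named for that reason, was the phosphatase gene PTPN6 (0.16, limma, adjusted p = 0.0336). Relative to ribosomal protein promoters the direction of this list flipped, with 8 higher and 1 lower, beside 76.3% higher and 5.73% lower of all genes.

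The response element letters were also counted over all tested genes. Of 37 tested genes with 2 or more matches in a promoter window, IFIT1, IFIT3 and IFIT5 included, 24.3% were called higher and 45.9% lower, beside 24.4% and 60.1% of 386 genes with 1 match and 17.2% and 67.0% of 11113 genes with none. The 5 genes whose pattern over the 4 libraries was nearest to the mean pattern of the IFIT genes, by Euclidean distance of centred log2 values, were MIR29B2CHG, FASLG, C5AR2, NAV1 and ISL2, at distances of 0.02 to 0.06. Their log2 changes lay between 0.98 and 1.06, below those of IFIT1, IFIT2 and IFIT3, since the mean pattern includes IFIT5.

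With 2 libraries a group, the p-values rest on a spread that limma shares across features, and they measure the spread between these samples only. With no filter on low values the same gene fits gave adjusted p = 0.000584 for IFIT1, 0.00192 for IFIT2, 0.000984 for IFIT3 and 0.00459 for IFIT5.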

How the data were processed

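H3K4me3 CUT&Tag libraries of HCC1428 cells (2 DMSO, 2 C48, day 5) were analysed. Per the labels and methods, the authors aligned reads to hg38 and dm6 with Bowtie2 2.3.4.1, called peaks in each library with HOMER, merged them over several cell lines, and annotated and quantified 110018 merged peaks. The deposited signal is HOMER tags per 10 M aligned tags, per the file headers and the steps of the values. No spike-in scaling was assumed to be in it. The steps alone cannot show this, since a constant factor per library would keep them. The deposited distance to the start site and peak score come from HOMER, and the score was not used. All values (100%) were whole tags within 0.1 tag. A table of repeat subfamilies was not used.

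Libraries were scaled by TMM over 45692 peaks called in at least 1 of the 4 libraries. Genes are sums of peaks within 5 kb. Peaks (33772) and genes (15602) with a mean of at least 5 were fitted with limma 3.58.1 (limma-trend, R 4.3.3) on log2(scaled tags per 10 M + 1), which understates changes of low peaks. Calls are Benjamini-Hochberg adjusted p under 0.05 over all features. The test was checked on simulated data over 33772 peaks, with 50 peaks changed at each fold, the same dispersion for every peak and no scaling step. It recovered 44% of 1.5-fold, 88% of 2-fold and 100% of 3-fold and 5-fold changes. These rates do not cover the choice of scaling or changes as widespread as those in the data. Alternatives were other scalings, edgeR 4.0.16 and DESeq2 1.42.0 on the recovered tags, a pseudocount of 5, no filter, other windows, each replicate left out and a replicate block. edgeR called 2934 genes higher and 9997 lower. Sequences came from RefSeq (GRCh38.p14) and hg38, and transcripts from GENCODE release 44. The members and gene lists were chosen with earlier results of these data known. Named genes were the members, up to 4 genes of each list with the smallest p, and the 5 most alike with a mean of at least 20. Some markers and sequences are not reported here.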

Additional observations from a re-analysis of the deposited data

How the results depend on the processing

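IFIT1, IFIT2 and IFIT3 kept their direction and call under all 17 alternatives each, and 274 of the 311 values recomputed kept their side of the threshold or stayed within 1.5 times. Some alternatives could not move an estimate. For IFIT3, with its single peak, the other choices of rows gave the same 1.70, and the missing filter and the replicate block left every IFIT gene's estimate as it was. IFIT5 gave -0.056 with column totals, where it missed the threshold, and 0.30 relative to ribosomal protein promoters. With column totals and with ribosomal protein promoters 0 IFIT peaks were lower. Leaving out C48 replicate 2 ended the call of the upstream IFIT2 peak, so 5 to 6 IFIT peaks were higher over the leave-one-out fits. Restricted to rows annotated promoter-TSS, which hold only the start-site peak of IFIT1, IFIT1 changed by 0.52, and IFIT5 had no row. The difference of IFIT2 and IFIT3 was 0.18 with a pseudocount of 5 and ran from -0.11 to 0.059 when a library was left out.

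Values as deposited gave 6171 genes higher and 5810 lower, and 18192 peaks higher and 7917 lower, against 2943, 9982, 10925 and 13234 with TMM. Column totals gave 6961, 5007, 19567 and 6974, and ribosomal protein promoters 11929, 896, 27121 and 1869. Promoter-TSS rows gave 1631 genes higher and 6187 lower. Of the other interferon-stimulated genes, 3 were lower as deposited and 1 with column totals, 33 were higher and 0 lower relative to ribosomal protein promoters, and 9 were higher among promoter-TSS rows. Of the signalling genes, 8 were higher and 1 lower relative to ribosomal protein promoters, 0 were higher with DESeq2 size factors, the DESeq2 Wald test or promoter-TSS rows, and 0 to 1 when a library was left out. Of the neighbours, 5 were higher and 0 lower relative to ribosomal protein promoters, and 1 was higher among promoter-TSS rows.

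With the replicate number as a block, IFIT1 changed by 1.20, IFIT2 by 1.67, IFIT3 by 1.70 and IFIT5 by -0.52, with 6 IFIT peaks higher and 1 lower, and no call on an IFIT gene or peak changed. Same-numbered libraries did not deviate together (correlation -0.03 over 33772 peaks), so the numbers were not taken as pairs. TMM over all merged peaks, and leaving out libraries for the differences between genes, were added after seeing the data. Counting error limits the small peaks: the upstream IFIT2 peak rests on 35 to 115 tags a library. The causes of these changes were not tested, and the spike-in counts were not used here.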
